A study of Mus musculus with 2 samples.

Results

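The genes described here encode the shared machinery of the interleukin-7 and interleukin-2 receptors: the receptor chains Il7r, Il2ra, Il2rb and Il2rg, the kinases Jak1 and Jak3, and the transcription factors Stat5a and Stat5b. Members were all probe sets whose annotated gene symbol is exactly 1 of these 8 names, and each probe set was read separately. The rule found 14 of the table's 45101 probe sets, and they cover 7 of the 8 genes. No probe set was listed under Il2rg, which was therefore not analysed here, and 2 probe sets annotated to both Jak3 and Insl3 fall outside the rule. Expression was measured on 2 arrays, 1 for Miz-1 knockout DN3 thymocytes and 1 for wild-type DN3 thymocytes, both on the C57BL/6 background. The study's text describes the mutant mice as Miz1-delta-POZ, in which the transcription factor Miz-1 has lost its POZ domain, and the sources used here do not give how or in which cells the allele was made. The cells were sorted as lineage-negative, CD44-negative and CD25-positive. CD25 is the protein product of Il2ra, so 1 of the members was also the sorting marker.

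Interleukin-7 keeps immature T cell precursors alive and dividing. Its receptor joins the IL-7 receptor alpha chain to the common gamma chain. Binding activates JAK1, which sits on the alpha chain, and JAK3, which sits on the gamma chain, and these kinases phosphorylate STAT5, which enters the nucleus and binds DNA. The high-affinity interleukin-2 receptor uses the same gamma chain, kinases and STAT5 together with an alpha chain, CD25, and a beta chain, CD122. In the thymus CD25 marks the DN2 and DN3 stages, and its level drops once a cell passes beta-selection.

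There was 1 array per genotype, so no difference has an error between animals, and none was tested. The values are signal intensities in arbitrary units. A floor was set at 394, the median of all non-control signals, and lower signals were raised to it before log2 of knockout over wild type was taken. A probe set with a mean signal above the floor is called measured, and differences of 2-fold and more were counted as higher or lower when the brighter signal exceeded the floor. Within the 4514 genes that have several measured probe sets, log2 ratios differed between them with an SD of 0.57 (root mean square), which is the only repeated measurement on these arrays. The targeted gene Zbtb17 read 1361 in knockout cells, against 3042 in wild-type cells by 1 probe set, and 610 and 47.6 by the other. The sources used here do not say where these probes lie relative to the deleted part, so they do not check the labels. The arrays also differed in sex, with Xist at 55300.0 in knockout cells, against 423 in wild-type cells and the Y-linked gene Kdm5d at 36.7 and 1782. Sex and genotype therefore cannot be told apart for any gene below.

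The receptor chains Il2ra and Il7r were higher in the knockout, and Jak3 was lower by its single probe set. Il2ra passed 2-fold by both of its probe sets and Il7r by 1 of 2. Jak1, Stat5a and Stat5b differed by less than 2-fold, and Il2rb was near or under the floor. Of the 14 member probe sets, 3 counted as higher in the knockout, 1 counted as lower and 10 stayed under 2-fold. Over all non-control probe sets 3.97% counted as higher and 2.64% as lower. Most members were bright enough to be measured, 13 of 14, and among all 21897 measured probe sets the shares were 8.17% higher and 5.43% lower. The 3 higher probe sets belong to 2 genes, so they are not 3 separate observations. The median log2 ratio was 0.58 over the 14 members, with 10 positive and 3 negative. Over all 45037 non-control probe sets it was 0, with 14389 positive and 12636 negative. Probe sets under the floor on both arrays count as 0 there, and over the measured probe sets the median was 0.04.

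**Figure D1:**
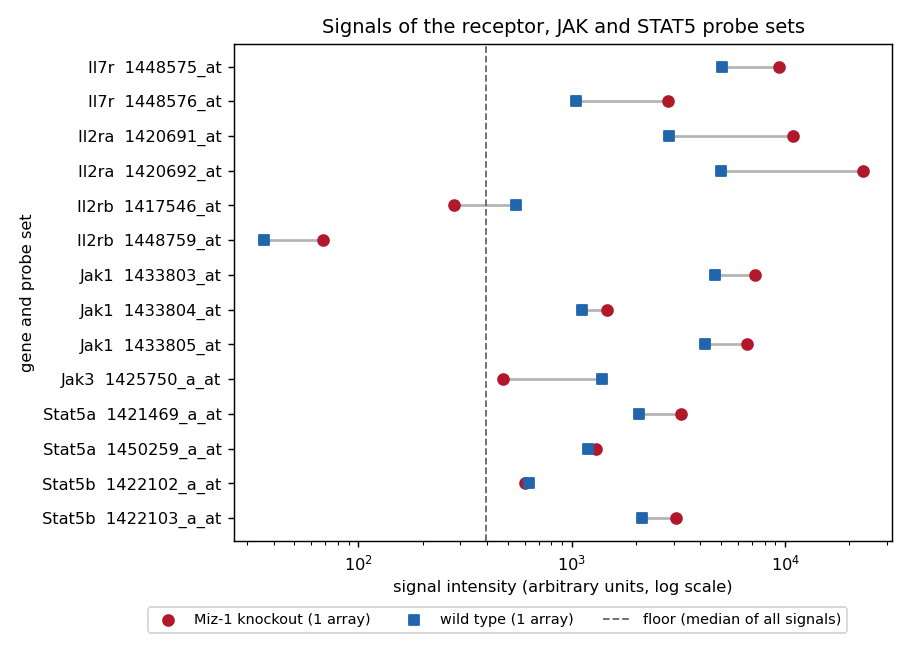
Signal intensity (arbitrary units, log scale) of each member probe set on the knockout array (circles) and the wild-type array (squares), with a dashed line at the floor of 394. The Il2ra pair is the widest among the probe sets that are brighter in the knockout, Jak3 runs the other way, and 1 Il2rb probe set lies under the floor on both arrays.

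Il2ra encodes the interleukin-2 receptor alpha chain, which raises the receptor's affinity for its ligand but does not signal by itself. Probe set 1420692_at read 23017.9 in knockout cells, against 4991.5 in wild-type cells. Probe set 1420691_at read 10854 in knockout cells, against 2843 in wild-type cells. Both probe sets were thus higher in the knockout, by 4.61-fold and 3.82-fold, with log2 ratios of 2.21 and 1.93 that differ from each other by 0.27. Only 0.301% of measured probe sets had a higher log2 ratio than the first and 0.63% a higher one than the second. The labels do not say where the CD25 gate was placed on each sample, and its part in the Il2ra difference was not tested. In RNA from a sorted pool, more cells with the transcript and more transcript per cell cannot be told apart.

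Il7r encodes the interleukin-7 receptor alpha chain, which binds the cytokine and docks JAK1. Probe set 1448575_at read 9300.1 in knockout cells, against 5065 in wild-type cells, a log2 ratio of 0.88. Probe set 1448576_at read 2832 in knockout cells, against 1042 in wild-type cells, a log2 ratio of 1.44. Both were higher in the knockout, by 1.84-fold and 2.72-fold, so the gene passed 2-fold by its dimmer probe set and not by its brighter one. The 2 log2 ratios lie 0.57 apart, an SD of 0.40, against the SD of 0.57 within a gene over all genes with several measured probe sets.

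Promoter windows of Il2ra and Il7r are shown because these were the member genes with a probe set at least 2-fold higher in the knockout. That of Cish is shown because it is a well-known STAT5 target that was higher too. Each holds 250 bases before and 50 after the RefSeq start site of the GRCm38.p6 assembly, on the gene's own strand, and capitals mark motif matches found on either strand. In Il2ra (chr2:11642542-11642841, plus strand) they mark 2 overlapping matches to the kappa B consensus, the recognition motif of NF-kappa B, which start at bases 50 and 51 of the window. In Il7r (chr15:9529827-9530126, minus strand) they mark TTCNNNGAA, the motif of STAT factors, at base 109 and TGTGGT, a core motif of RUNX factors, at base 254. In Cish (chr9:107296409-107296708, plus strand) they mark 2 matches to TTCNNNGAA, at bases 251 and 262.
Il2ra: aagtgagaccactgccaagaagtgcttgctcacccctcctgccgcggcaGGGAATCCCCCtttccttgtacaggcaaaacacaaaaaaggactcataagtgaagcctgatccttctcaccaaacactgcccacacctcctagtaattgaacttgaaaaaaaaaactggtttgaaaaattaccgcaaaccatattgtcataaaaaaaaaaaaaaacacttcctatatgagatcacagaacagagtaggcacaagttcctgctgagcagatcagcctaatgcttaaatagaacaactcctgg
Il7r: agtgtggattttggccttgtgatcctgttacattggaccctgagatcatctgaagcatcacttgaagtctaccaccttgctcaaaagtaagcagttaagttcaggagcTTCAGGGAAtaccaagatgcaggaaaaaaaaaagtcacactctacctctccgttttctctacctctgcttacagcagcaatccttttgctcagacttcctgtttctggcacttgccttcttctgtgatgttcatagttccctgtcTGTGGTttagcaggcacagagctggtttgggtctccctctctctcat
Cish: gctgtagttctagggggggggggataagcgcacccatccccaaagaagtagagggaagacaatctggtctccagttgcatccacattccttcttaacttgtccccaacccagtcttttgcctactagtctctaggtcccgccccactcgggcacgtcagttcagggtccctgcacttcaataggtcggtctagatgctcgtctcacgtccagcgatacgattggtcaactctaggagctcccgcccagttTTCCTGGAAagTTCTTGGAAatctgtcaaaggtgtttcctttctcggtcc
Of 32851 such windows in the RefSeq table, 8.30% hold TTCNNNGAA, 16.8% hold TGTGGT and 8.46% hold the kappa B consensus. The table has 9 windows for 7 of the members, Il2rg included and Il2rb not. Among these 9, TTCNNNGAA occurs only in the Il7r window, and the windows of Jak1, Jak3 and Stat5b hold none of the 3 motifs. A match describes these letters and does not show binding.

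Il2rb encodes the beta chain, the signalling subunit that interleukin-2 and interleukin-15 receptors have in common. Its probe set 1417546_at read 281 in knockout cells, against 546 in wild-type cells, at least 1.39-fold lower with the knockout signal under the floor. Probe set 1448759_at read 68.0 in knockout cells, against 36.1 in wild-type cells, under the floor on both arrays, so it gives no ratio. The Il2rb difference thus rests on 1 probe set whose mean signal of 414 is just above the floor. Its log2 ratio of -0.47 is a bound set by the floor, and the unfloored signals gave -0.96.

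Among the kinases, Jak1, which pairs with the IL-7 receptor alpha chain or the beta chain CD122, had 3 probe sets on the same side. Probe set 1433803_at read 7253 in knockout cells, against 4700.2 in wild-type cells. Probe set 1433805_at read 6586 in knockout cells, against 4220.4 in wild-type cells. Probe set 1433804_at read 1462 in knockout cells, against 1115 in wild-type cells. The 3 log2 ratios were 0.63, 0.64 and 0.39 in that order, with a mean of 0.55 ± 0.14 (SD over 3 probe sets of 1 array pair, not over animals), and none reached 2-fold. Of all measured probe sets, 19.7% had a higher log2 ratio than the highest of the 3.

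Jak3, the kinase bound to the common gamma chain, differed in the opposite direction by its only probe set of single annotation. Probe set 1425750_a_at read 474 in knockout cells, against 1390 in wild-type cells, 2.93-fold lower with a log2 ratio of -1.55. Only 0.831% of measured probe sets had a lower log2 ratio. The knockout signal lies just above the floor, and no second probe set of Jak3 alone is there to compare with. Probe set 1423021_s_at, which is annotated to Jak3 and Insl3 together, read 894 in knockout cells, against 75.9 in wild-type cells, at least 2.27-fold higher. The other one annotated to both genes, 1427092_at, read 42.8 in knockout cells, against 297 in wild-type cells, under the floor on both. Probe sets that name Jak3 therefore do not give a single direction.

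The STAT5 proteins are encoded by Stat5a and Stat5b, near-identical paralogs that lie side by side on the same chromosome, and their probe sets may share signal. For Stat5a, probe set 1421469_a_at read 3239 in knockout cells, against 2062 in wild-type cells, a log2 ratio of 0.65. Its second probe set, 1450259_a_at, read 1299 in knockout cells, against 1192 in wild-type cells, a log2 ratio of 0.12. Both were above their wild-type signal but by less than 2-fold, and they differ from each other by 0.53. For Stat5b, probe set 1422103_a_at read 3091 in knockout cells, against 2137 in wild-type cells, a log2 ratio of 0.53. Its dimmer probe set 1422102_a_at read 601 in knockout cells, against 628 in wild-type cells, a log2 ratio of -0.06. The 2 Stat5b probe sets lie 0.60 apart, an SD of 0.42, against the SD of 0.57 within a gene over all such genes. They lie on opposite sides of 0, so no direction can be given for Stat5b.

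**Figure D2:**
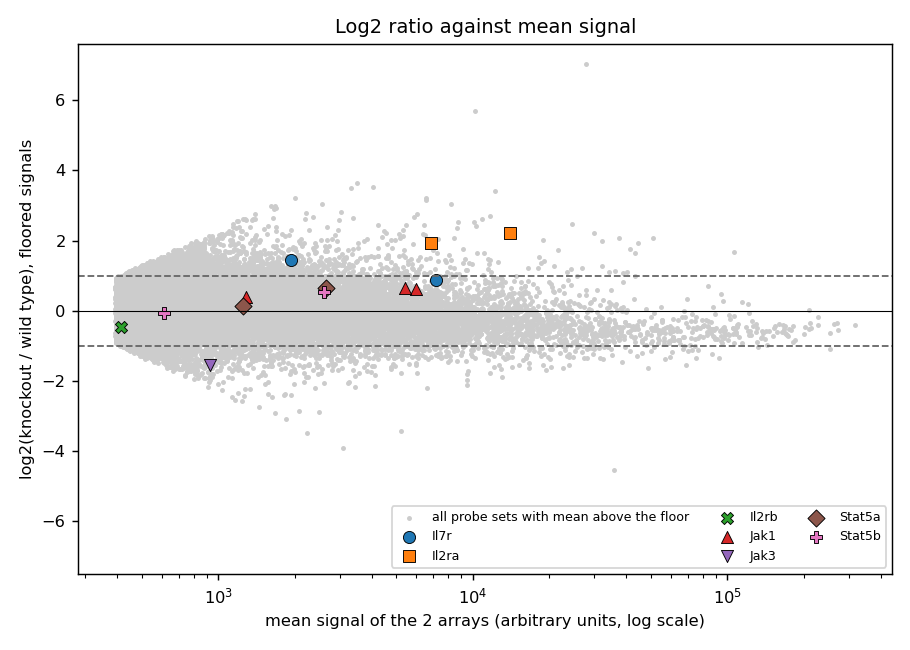
Log2 ratio of knockout over wild type (floored signals) against the mean signal of the 2 arrays (arbitrary units, log scale) for all measured probe sets (grey) and the measured members (coloured by gene), with dashed lines at 2-fold. Both Il2ra probe sets lie near the upper edge of the cloud at 1.93 and 2.21, Jak3 lies at -1.55 near the lower edge, and the Jak1, Stat5a and Stat5b probe sets lie inside the 2-fold lines.

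The ratios had a trend with brightness: the median log2 ratio was -0.34 in the brightest 10% of measured probe sets and 0.13 in the dimmest 10%. Quantile and loess normalization, which remove this trend, moved the brighter Il7r probe set 1448575_at just past 2-fold, to a log2 ratio of 1.03 under loess. Of the 7 alternatives, only the 3 scalings (median centring, quantile and loess) could move the Il2ra ratios. Under these the probe sets still counted as higher, with log2 ratios from 2.17 to 2.44 for 1420692_at and from 1.89 to 2.05 for 1420691_at. The other alternatives left them unchanged by construction, because both signals exceed every floor and neither name marks shared sequence. Jak3 ranged from -1.68 to -1.34 in the 6 alternatives that keep its probe set.

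**Figure D3:**
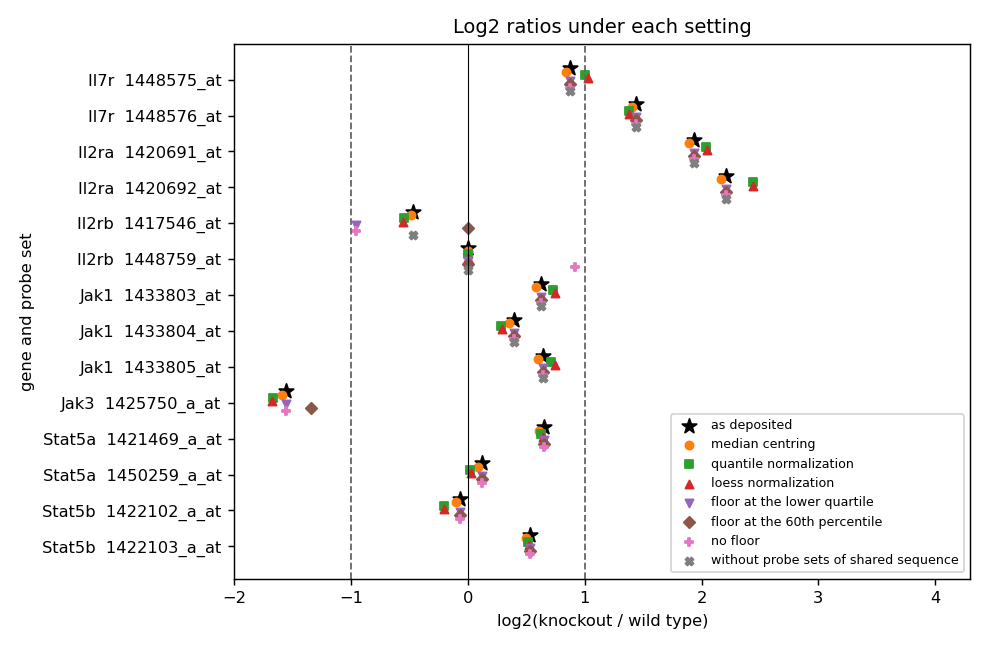
Log2 ratio of knockout over wild type for each member probe set with the values as deposited (stars) and under 7 other settings (other symbols), with dashed lines at 2-fold. Il2ra stays beyond the upper line and Jak3 beyond the lower one wherever their probe sets are kept, and the brighter Il7r probe set crosses the upper line only under quantile and loess normalization.

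Over the 2 arrays, the probe sets of other named genes with signals closest to those of Il2ra 1420692_at belonged to Scin, Ifngr1 and Gbp7. Their Euclidean distances in log2 signal were 0.46, 0.53 and 0.55. Scin, which encodes an actin-severing protein, read 16817 in knockout cells, against 5345 in wild-type cells. Ifngr1, a chain of the interferon gamma receptor, read 16848 in knockout cells, against 6080.2 in wild-type cells, and Gbp7, an interferon-inducible GTPase, read 15694 in knockout cells, against 5005 in wild-type cells. With 2 arrays this likeness covers only a pair of signals.

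Other genes of the pathway were read by their brightest probe set. The lists were chosen with earlier results of these data known, so the counts below describe them and test nothing. Of 62 listed genes, 61 had a probe set and 50 were measured. Of these 50, 6 counted as higher in the knockout and 0 as lower, and among all 10770 measured genes 7.23% counted as higher and 5.65% as lower. The median log2 ratio was 0.26 over the 50 genes and 0.00021 over all measured genes. The 7 member genes, read the same way, had 1 gene higher (Il2ra) and 1 lower (Jak3), with a median of 0.63.

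Ligand transcripts were mostly under the floor; in the thymus, interleukin-7 is known to come from epithelial cells. Of 7 ligand genes only Il7 was measured, at 688 in knockout cells, against 397 in wild-type cells, a log2 ratio of 0.79. Il2 read 159 in knockout cells, against 40.9 in wild-type cells, and Il15 read 303 in knockout cells, against 316 in wild-type cells, under the floor on both arrays. Of 5 other receptor chains, 3 were measured and none reached 2-fold. Their log2 ratios ran from -0.31 for Il15ra, the alpha chain of the interleukin-15 receptor, to 0.31 for Crlf2, the chain that pairs with the IL-7 receptor alpha chain to bind TSLP.

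By their brightest probe sets, all 6 measured genes of other JAKs and STATs had positive log2 ratios, with a median of 0.73, and 1 of them passed 2-fold. Over all 10770 measured genes, 5386 had positive log2 ratios. Stat2, which acts downstream of type I interferon receptors, read 919 in knockout cells, against 191 in wild-type cells, at least 2.33-fold higher, although its second probe set had a log2 ratio of 0.61. Stat2 no longer counted as higher with the floor at the 60th percentile or with the mean of its probe sets. The smallest of the 6 was that of Jak2, a kinase of other cytokine receptors, at 0.32, and its second probe set gave 1.43. Stat3, a STAT of many cytokine receptors, had a log2 ratio of 0.68 by the brightest of its 4 probe sets, which ran from -0.70 to 0.77. Stat6, which acts downstream of the interleukin-4 receptor, had 0.83 and 1.70 by its 2 probe sets.

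Among the 50 measured genes of the pathway lists, which leave out the members, the highest log2 ratios were those of feedback inhibitors. Of 12 measured inhibitor genes, 3 counted as higher and none as lower, and their median log2 ratio was 0.16. Cish, induced by STAT5 and encoding a protein that dampens cytokine receptor signalling, read 4266 in knockout cells, against 1182 in wild-type cells, 3.61-fold higher. Socs2, which encodes a related protein, read 2350.3 in knockout cells, against 368 in wild-type cells, at least 5.96-fold higher, but its 4 measured probe sets ran from -0.37 to 2.58. Socs3 read 6964 in knockout cells, against 2318 in wild-type cells, and the log2 ratios of its 3 probe sets ran from 1.59 to 2.29. Socs1, an inhibitor of JAK kinases, read 1248 in knockout cells, against 1542 in wild-type cells, a log2 ratio of -0.31. The phosphatase gene Ptpn2, whose product acts on JAK1 and JAK3, had the lowest log2 ratio of the list at -0.48 and a second probe set at 0.26.

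Among genes known to respond to STAT5, 10 of 13 were measured, 1 counted as higher and none as lower, around a median log2 ratio of 0.63. That 1 was Ccnd2, encoding cyclin D2, at 27666 in knockout cells, against 10377 in wild-type cells, 2.67-fold higher, with 7 probe sets from 0.06 to 1.41. Bcl2, the survival gene downstream of interleukin-7, read 7212 in knockout cells, against 3773 in wild-type cells by the brightest of its 5 probe sets, whose log2 ratios ran from 0.93 to 1.99. Ccnd3, encoding cyclin D3, had the lowest log2 ratio of the list at -0.50, while another of its 3 probe sets gave 1.57. Of 8 measured genes of adaptors and the PI3K branch, Pik3cd, a catalytic subunit of PI3K, was 2.17-fold higher, with 4 measured probe sets from 0.12 to 1.12, and Ptk2b, a tyrosine kinase gene, had the lowest log2 ratio at -0.76.

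None of 10 measured genes for factors that bear on Il7r transcription passed 2-fold by the brightest probe set, and the median log2 ratio was -0.12. Foxo1, an activator of Il7r, read 1823 in knockout cells, against 929 in wild-type cells, and the log2 ratios of its 3 measured probe sets ran from 0.97 to 2.11. Nr3c1, the glucocorticoid receptor gene, had the lowest log2 ratio at -0.91, and its 5 measured probe sets ran from -0.91 to 0.34.

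**Figure D4:**
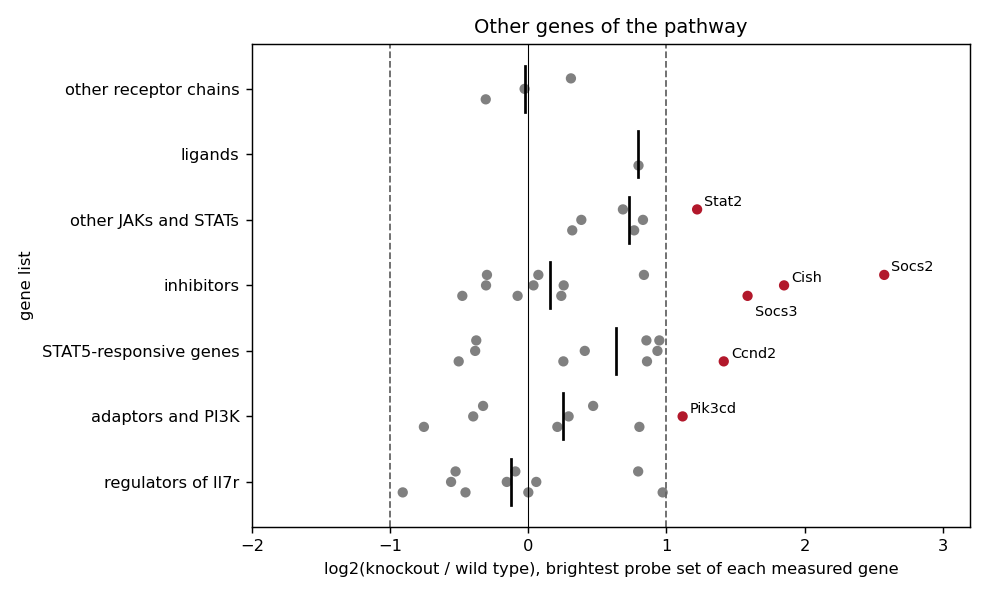
Log2 ratio of knockout over wild type for the measured genes of 7 pathway lists, each read by its brightest probe set (points, red with a name where at least 2-fold), with a vertical bar at each list's median and dashed lines at 2-fold. The 6 named genes all lie on the side of higher signal in the knockout, with Socs2 farthest at 2.58, and no gene lies beyond the lower line.

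Markers of the sorted stage were present on both arrays: all 10 listed DN3 genes with a probe set were measured, and 3 of them, Dtx1, Cd3d and Cd3g, were 5.09-fold, 2.14-fold and 2.17-fold higher in the knockout. Among all measured genes 7.23% counted as higher. The 10 DN3 genes had a median log2 ratio of 0.42, with 9 positive and Rag1 lower at -0.40. Their signals summed to 281402 in knockout cells, against 191671 in wild-type cells. Cd4 was under the floor on both arrays and Cd44 read 331 in knockout cells, against 424 in wild-type cells. Genes of other lymphocytes and myeloid cells that can carry these receptors also differed. In the list of NK and innate lymphoid markers, Nkg7 and Xcl1 were 2.40-fold and at least 2.07-fold higher among 3 measured of 7, while Klrd1 read 232 in knockout cells, against 683 in wild-type cells, at least 1.73-fold lower. Signals over the list summed to 6844 in knockout cells, against 3239 in wild-type cells, of which Nkg7 gave 4655 and 1942. In the list of regulatory and activated T cell markers, Ctla4 and Ikzf4 were 2.13-fold and 2.27-fold higher among 5 measured of 6, and Icos read 300.3 in knockout cells, against 547 in wild-type cells, at least 1.39-fold lower. The sums were 11362 in knockout cells, against 6019 in wild-type cells, of which Ctla4 gave 5889 and 2770.1. The defining gene Foxp3 read 460 in knockout cells, against 43.2 in wild-type cells with a mean under the floor. Myeloid markers summed to 4904 in knockout cells, against 1850 in wild-type cells, with Lyz2 and Csf1r 3.59-fold and 2.28-fold higher and the other 4 of 6 not measured. The 3 measured probe sets of Csf1r had log2 ratios from 0.05 to 1.37. B cell markers summed to 4468 in knockout cells, against 2667 in wild-type cells, with none of 3 measured genes of 5 past 2-fold and Pax5 and Ebf1 under the floor on both arrays. Among gamma-delta T cell markers, 1 of 4 measured genes of 5, Maf, was 2.44-fold higher, while Il17a and Sox13 had log2 ratios of -0.40 and -0.14, and the sums were 5415 in knockout cells, against 5144 in wild-type cells. Of the early progenitor markers, none of 3 measured genes of 6 passed 2-fold, and signals summed to 2515 in knockout cells, against 2802 in wild-type cells. Flt3, with a mean under the floor, gave 67.6 and 554 of these sums. Of the markers of double positive thymocytes, 1 of 3 was measured and none passed 2-fold, and signals summed to 690 in knockout cells, against 1255 in wild-type cells. Cd8b1, also with a mean under the floor, gave 36.8 and 679 of these. The direction of both sums thus rests on a gene that was not measured. The part of other cells in the Il2ra and Il7r values was not tested.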

How the data were processed

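Per the labels' protocols, RNA was extracted with TRIzol and biotin-labelled by in vitro transcription. The values the authors deposited are linear signal intensities, 1 per probe set and array. The submitters' processing notes name GCOS 1.4, without its settings in the sources used here. Both columns have a mean of 1000 after trimming 2% at each end, so they were scaled to a common level. Detection calls and scanner files were not analysed here, and the number of arrays limits the precision.

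From these values, 64 control probe sets were left out and log2 ratios were computed above a floor at the median, with Python 3.11.15, pandas 2.3.3 and statsmodels 0.14.6. Symbols come from the supplied platform annotation, updated by gene identifier: of the non-control probe sets 34945 have 1 symbol, 932 several and 9160 none listed. Promoters come from RefSeq. The calculation was tested on simulated arrays with known changes, all well beyond 2-fold and in bright probe sets. Signals near the floor, changes near 2-fold, the removal of shared sequence and the mean of probe sets were not simulated. The members and lists were chosen with earlier results of these data known. Named genes are all members, pathway genes past 2-fold, the highest and lowest measured gene of each list, preset feedback, ligand and survival genes, marker genes past 2-fold, and the 3 probe sets nearest to Il2ra; Stat3, Stat6 and markers under the floor or under 2-fold were added after their values were seen. Alternatives were 3 scalings, 3 floors, leaving out probe sets of shared sequence, and the mean of probe sets.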

Additional observations from a re-analysis of the deposited data

Results flagged for a closer look

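Probe set 1423021_s_at is annotated to Jak3 and Insl3 together, so it is no member and is counted for neither gene. It was singled out because its signal was above the floor in the knockout and under it in the wild type, 894 against 75.9, with a log2 ratio of 1.18 after flooring. The cause was not tested.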

How the results depend on the processing

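The member ratios were recomputed in 93 cases over 7 alternatives, and 92 moved by less than the SD within a gene. Many of the 92 could not move, so this count does not measure stability. A changed floor leaves signals above it as they were, and leaving out probe sets does not alter those kept. The 92 include Il7r probe set 1448575_at under quantile and loess normalization, where it passed 2-fold. The case that moved more was Il2rb probe set 1448759_at, which had a log2 ratio of 0.91 without a floor, from 2 signals that both lie under it. Leaving out probe sets named _a_at, _s_at or _x_at removed all those of Jak3, Stat5a and Stat5b, which end in _a_at. Then 0 members were at least 2-fold lower and 1 member gene, Il2ra, was at least 2-fold different. The removal rests on the name ending alone, and a match to another gene was not examined. With the floor at the lower quartile, 2 pathway genes were at least 2-fold lower, Il4 and Tslp, both with a mean under the main floor. The number of pathway genes at least 2-fold higher ran from 5 to 8. With the mean of probe sets, Il7r passed 2-fold beside Il2ra and Jak3, and the 6 higher pathway genes were Cish, Socs2, Socs3, Bcl2, Stat6 and Foxo1, so that Stat2, Ccnd2 and Pik3cd no longer counted. Stat2 was also lost with the floor at the 60th percentile. No paired analysis was possible because there is 1 array per genotype, and for the same reason no replicate could be left out. Probe sets under the floor on both arrays, such as 1448759_at of Il2rb and those of Il2 and Il15, give no usable ratio.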
